A study of Mus musculus with 10 samples.

Results

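The genes described here encode collagens and other proteins of the extracellular matrix, with the enzymes that modify collagen and the proteases and inhibitors that act on matrix. A probe set, the group of short array probes designed for 1 transcript, was taken as a member when the platform annotation gave it a single gene symbol of a collagen, laminin, fibrillin, fibulin, nidogen, thrombospondin, lysyl oxidase, Sparc, matrix metalloproteinase (Mmp), metalloproteinase inhibitor (Timp) or collagen prolyl hydroxylase (P4ha) gene, or the symbol Fn1, Eln, Dcn, Bgn, Lum, Fmod, Postn, Mgp, Spp1 or Hspg2. This gave 89 probe sets of 71 genes, out of 13057 probe sets and 6137 named genes in all. Chip A held 47 of them for 43 genes and chip B 42 for 36 genes. No probe set for Spp1 was found among them. Members were taken by symbol and no measured value entered the rule, though they were chosen with earlier results of these data known.

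The study measured RNA in 5 tissues of adult female C57BL/6 mice, an inbred strain: pancreas, muscle, liver, hypothalamus and white adipose. Biotin-labelled cRNA was prepared from 10 µg of total RNA, extracted with Trizol, and hybridised to Affymetrix arrays of 2 designs, chip A and chip B. Each tissue has 1 array on each chip, 10 arrays in all, with no treatment, no allele and no replicate. The labels do not say how many animals stood behind a sample. For the adipose arrays the source label reads white adipose tissue, while the title reads preconfluent, a word used of cultured cells. With 1 array per tissue and chip there is no spread between animals, no test was possible and no p-value is given. Every difference below compares those arrays, and in a whole tissue fewer cells of a type and less RNA per cell cannot be told apart.

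The genes checked as markers of each labelled tissue were highest where the label places them, with 1 exception. Prss2, a trypsinogen of the acinar cell, read 192990.0 in pancreas and no more than 4.02 elsewhere. Ckm, muscle creatine kinase, read 159204 in muscle against at most 2396. Avp and Oxt, the vasopressin and oxytocin genes, read 10766 and 11298 in hypothalamus and were below 0 in the other tissues. In the adipose arrays Adipoq, the adiponectin gene, read 16859.6 and Lep, the leptin gene, 2871, against at most 988 and 15 elsewhere. All 6 measured adipocyte markers were called for white adipose by the 4-fold rule defined below. Of 4 cell division genes, Pcna, Mki67, Top2a and Cdk1, only Cdk1 was above noise there, at 426, against 1864 in muscle. The exception was Alb, the albumin gene of hepatocytes, which read 18133 in liver but 26255 in pancreas and 8228 in muscle. The other 5 of 6 hepatocyte genes were called for liver, and whether liver RNA was present in the pancreas and muscle samples was not tested.

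The extracellular matrix is the protein scaffold between and beneath cells. Fibrillar collagens assemble into the rope-like fibrils of loose connective tissue, whereas type IV collagen and laminins form the sheet called the basement membrane, which nidogens and the proteoglycan perlecan tie together. Elastin and fibulins build elastic fibres, lysyl oxidases crosslink elastin and collagen, and small leucine-rich proteoglycans coat collagen fibrils. Metalloproteinases cut these proteins and Timp proteins inhibit them. In fat each adipocyte is wrapped in its own basement membrane, and collagen VI is an abundant part of fat matrix. Muscle fibres are also wrapped in basement membrane, the liver sinusoid has little of it, and brain holds few collagen fibrils outside its vessels and meninges.

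The 4 genes taken as markers of the matrix group are Col1a1 and Col3a1, which encode chains of fibrillar collagens I and III, Col15a1, a collagen beside basement membranes, and Postn, periostin, a secreted protein that binds collagen. Promoter sequence was looked up for the members in the RefSeq table of assembly GRCm38.p6, where 46 of 71 genes had a window, 54 windows in all because 8 genes had 2. The 250 bases before the start are shown for Col3a1, Col15a1 and Postn, for Col1a2, the partner chain of Col1a1, and for Fmod, the fibromodulin gene, whose tissue differed from that of the markers. They show what sequence precedes genes with a like or an unlike tissue pattern. Capitals mark the TATA box, spelled TATAAA, the CCAAT box, spelled as in its name, or the GC box, spelled GGGCGG, each searched on both strands. All 5 lie on the plus strand and are written 5′ to 3′. Col3a1 covers chr1:45311288-45311537, Col1a2 chr6:4505368-4505617, Col15a1 chr4:47207762-47208011, Postn chr3:54360857-54361106 (the downstream of 2 starts) and Fmod chr1:134037004-134037253.
Col3a1: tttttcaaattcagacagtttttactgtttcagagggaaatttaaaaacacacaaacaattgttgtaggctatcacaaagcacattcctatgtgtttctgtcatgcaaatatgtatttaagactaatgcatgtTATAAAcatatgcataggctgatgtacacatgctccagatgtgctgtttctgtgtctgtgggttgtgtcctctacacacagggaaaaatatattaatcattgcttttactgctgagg
Col1a2: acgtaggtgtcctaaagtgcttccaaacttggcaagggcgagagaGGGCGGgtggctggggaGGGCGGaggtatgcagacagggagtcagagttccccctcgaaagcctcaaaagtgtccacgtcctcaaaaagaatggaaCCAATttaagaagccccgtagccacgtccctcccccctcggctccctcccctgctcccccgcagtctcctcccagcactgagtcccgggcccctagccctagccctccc
Col15a1: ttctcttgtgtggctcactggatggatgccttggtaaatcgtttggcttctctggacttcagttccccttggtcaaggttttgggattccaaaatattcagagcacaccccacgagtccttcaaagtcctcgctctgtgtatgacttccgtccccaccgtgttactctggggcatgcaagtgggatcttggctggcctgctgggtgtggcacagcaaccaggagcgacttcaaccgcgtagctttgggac
Postn: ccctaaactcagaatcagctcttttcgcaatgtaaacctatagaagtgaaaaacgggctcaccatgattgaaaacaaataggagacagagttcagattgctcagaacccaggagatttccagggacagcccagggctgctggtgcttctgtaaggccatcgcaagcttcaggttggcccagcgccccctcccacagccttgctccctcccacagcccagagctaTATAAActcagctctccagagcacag
Fmod: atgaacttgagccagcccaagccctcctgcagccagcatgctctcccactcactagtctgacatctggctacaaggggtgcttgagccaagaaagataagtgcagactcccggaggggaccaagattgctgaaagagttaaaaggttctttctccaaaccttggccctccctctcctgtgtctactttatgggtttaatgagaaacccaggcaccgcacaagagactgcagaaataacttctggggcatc

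Counted back from the start, the first base of the TATA box lay at -26 in Postn and at -117 in Col3a1. Col1a2 held GC boxes at -205 and -188 and a CCAAT box at -109, and the windows of Col15a1 and Fmod held none of the 3 motifs. A TATA box was found in 9 of 54 member windows (16.67%) and in 12.37% of 32851 windows of the table. A CCAAT box was in 19 member windows (35.19%, against 33.85%) and a GC box in 26 (48.15%, against 32.74%). These counts describe letters and say nothing of binding. Of the members, 7 pairs are neighbours on a chromosome: Col3a1 with Col5a2, Col4a3 with Col4a4 and Col9a1 with Col19a1 on chromosome 1, Col6a1 with Col6a2 and Dcn with Lum on chromosome 10, Mmp12 with Mmp13 on chromosome 9, and Col4a1 with Col4a2 on chromosome 8. Col4a1 and Col4a2 run in opposite directions from starts 21 bases apart in that assembly.

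Values are intensities on a linear scale, brought to a common mean per array, and can be negative because a signal had been subtracted. The noise bound of an array was the size of its 1st percentile, a value below 0, and a value beyond that bound is called above noise. The pancreas arrays had the largest bounds, 1166 on chip A and 2607 on chip B, followed by muscle with 1065 and 1639.8. White adipose had 390.1 and 918, liver 295 and 792, and hypothalamus 258 and 649. Weak transcripts could therefore be seen less well in pancreas and muscle than in the other tissues. Levels of different probe sets are not comparable, so each fold is a ratio between tissues within 1 probe set. The fold sets the highest tissue against the next one or, where a larger value, against the noise bound of the other arrays, and is then given as at least that fold. When the fold is named against 1 tissue, that array's own bound was used.

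Among the matrix genes whose highest value was above noise, most were highest in white adipose, 26 of 38 genes. Counted by probe set it was 68.8%, against 15.5% of all such probe sets. For some of them, such as Col5a2 and Timp2, the adipose value was below the noise bounds of pancreas and muscle. Their order to those tissues is therefore not settled. Of all 89 probe sets, above noise or not, 40 had their highest value in white adipose, for which no share over all probe sets was counted. A probe set was called for a tissue when it was at least 4-fold over the highest other tissue, after values below a floor, 175 for chip A probe sets and 123 for those of chip B, had been raised to it. By this rule 14 of 89 matrix probe sets (15.7%) were called for white adipose, against a background of 0.911% of all probe sets. That background includes probe sets without a gene symbol, 785 on chip A and 4506 on chip B, whereas every matrix probe set has a symbol. The share over named probe sets alone was not counted. In pancreas 4 (4.49%) were called against 3.58% of all probe sets, in muscle 2 (2.25%) against 1.85%, and in liver and hypothalamus none against 2.12% and 1.98%. The pancreas and muscle shares lay near their background. With the further condition that the value be above noise, 13 were called for white adipose (14.6%, background 0.835%), 3 for pancreas (3.37%, background 1.66%), 2 for muscle (background 1.28%) and none for liver or hypothalamus (background 2.04% and 1.85%). For 3 of these 13 (Col5a2, Timp2 and a Col5a1 probe set) the adipose value was at or below the noise bound of another array.

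**Figure D1:**
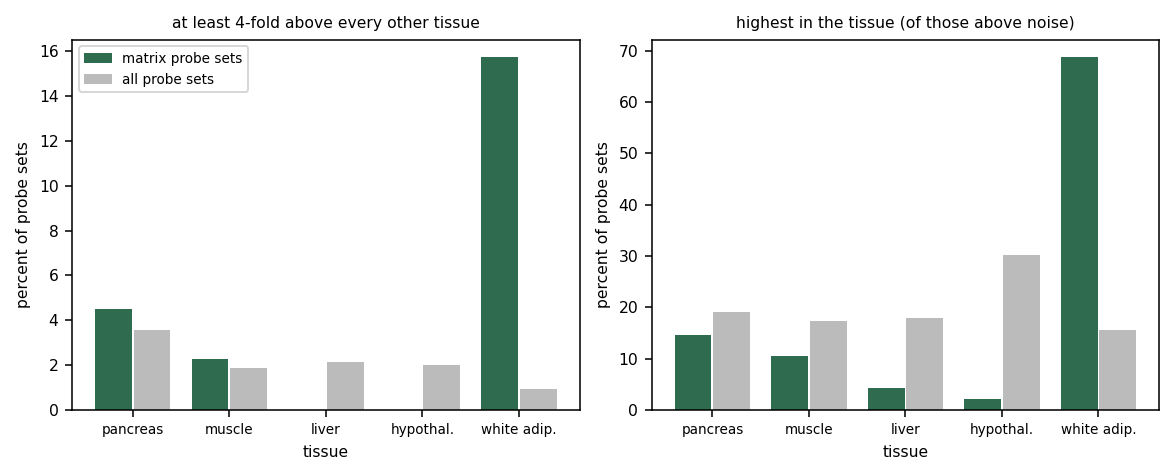
Percent of the matrix probe sets (green bars) and of all probe sets (grey bars) assigned to each of 5 tissues, on the left by the rule of at least 4-fold over every other tissue and on the right by the tissue of the highest value among probe sets whose highest value was above noise. In white adipose the matrix share was 15.7% against 0.911% on the left and 68.8% against 15.5% on the right, while in liver and hypothalamus the matrix bars on the left are at 0.

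The tissue of the highest value gave a like picture. Among 48 matrix probe sets whose highest value was above noise, 33 (68.8%) were highest in white adipose, where 15.5% of 4858 such probe sets of the arrays were. Pancreas had 7 (14.6%, background 19.1%), muscle 5 (10.4%, background 17.4%), liver 2 (4.17%, background 17.9%) and hypothalamus 1 (2.08%, background 30.1%). Counted as above noise instead, 43 matrix probe sets were seen in white adipose (48.3%, against 24.8% of all probe sets), 23 in muscle (25.8%, against 13.9%), 14 in pancreas (15.7%, against 11.9%), 15 in hypothalamus (16.9%, against 31.0%) and 9 in liver (10.1%, against 25.7%). White adipose was the sole tissue above noise for 19 probe sets, muscle for 2 and pancreas for 2. For these counts the share over all probe sets was not counted. The noise bounds of pancreas and muscle were larger than those of white adipose, so the counts alone do not set matrix genes apart from other genes. The calls for white adipose depended on the floor: with the floor at the 75th percentile 6 were left, and with each array's noise bound as floor only Col4a1 and Col6a1. Of all 13057 probe sets, 64 were called for white adipose with the former floor and 32 with the latter.

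Of the 71 genes, 40 had a probe set above noise in at least 1 tissue and are described by class. The other 31 were above noise in no tissue: Col2a1, Col4a3, Col4a5, Col8a1, Col9a1, Col9a2, Col9a3, Col10a1, Col11a1, Col12a1, Col17a1, Col19a1, Col22a1, Col26a1, Lama1, Lama3, Lama5, Nid2, Fbn2, Fbln7, Lox, Thbs1, Thbs2, Thbs3, Mmp3, Mmp7, Mmp9, Mmp10, Mmp12, Mmp13 and Timp1. Many of these have textbook sites outside the 5 tissues, such as cartilage for Col2a1, Col9a1 and Col11a1. A gene in this group was not detectable on these arrays, which does not show it to be absent. A total of 79 of the 89 probe sets carry a design suffix that marks probes shared by several transcripts or otherwise relaxed rules, and the 13 of family type (suffix f) may also read related genes.

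**Figure D2:**
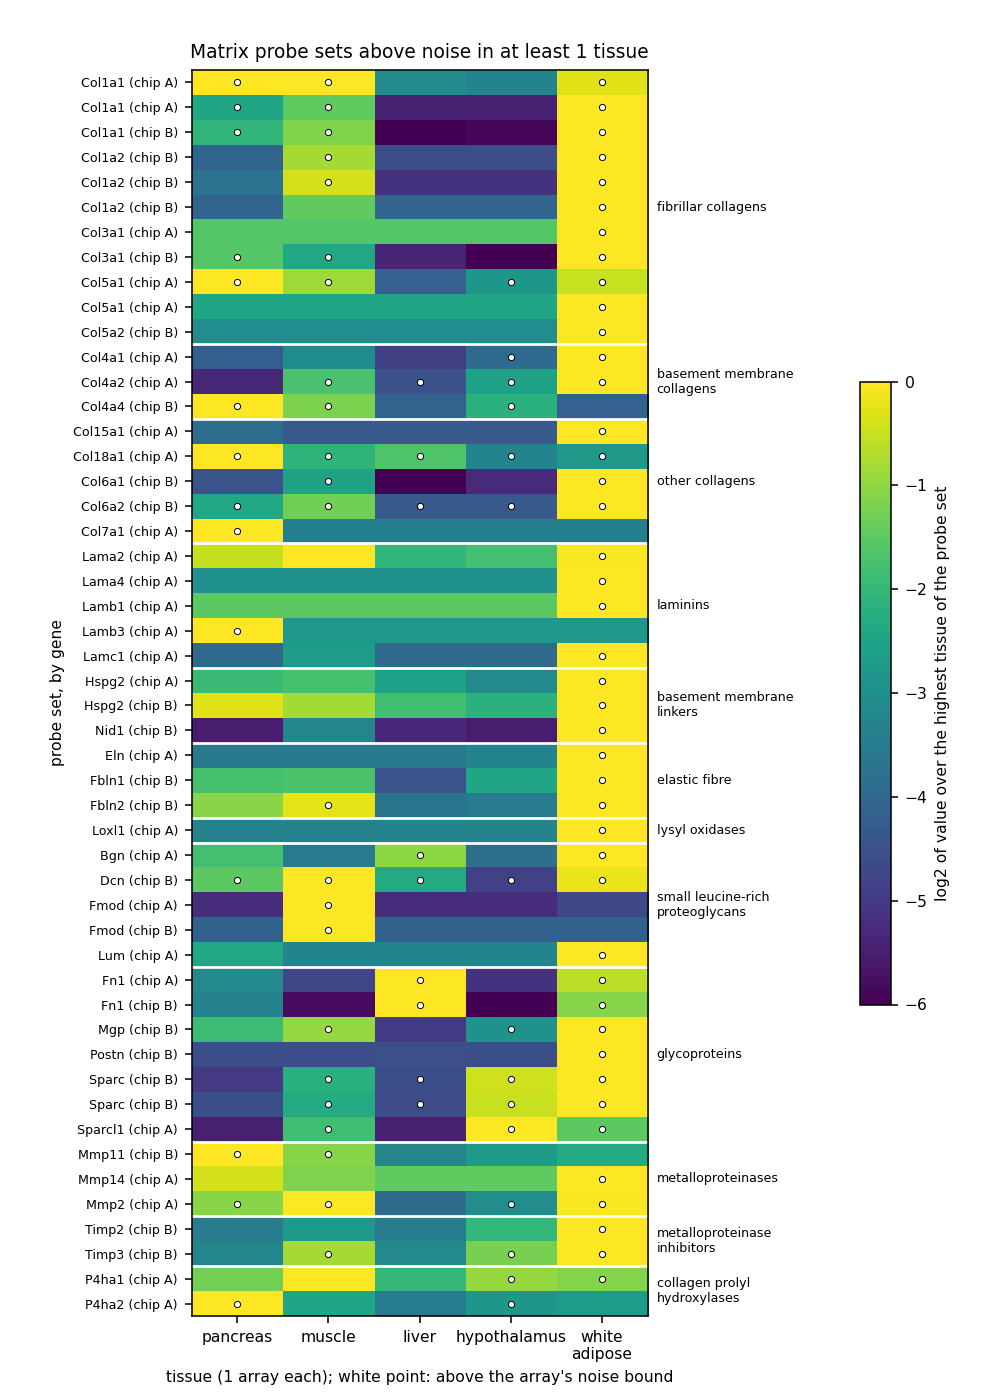
Heat map of the 50 matrix probe sets above noise in at least 1 of 5 tissues, one row per probe set grouped by matrix class and one column per tissue (1 array each). Colour is log2 of the value, raised to the floor, over the highest tissue of the same row, so yellow (0) marks the highest tissue, and a white point marks a value above the array's noise bound. The adipose column is yellow in most rows, and among the exceptions Fmod is yellow in muscle, Fn1 in liver, Sparcl1 in hypothalamus and Col18a1, Col4a4 and Col7a1 in pancreas. Under another scaling the yellow cell of Dcn and of 1 Col1a1 row moves from muscle, that of Mmp2 too, and under quantile normalization that of both Sparc rows.

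The fibrillar collagens were above noise in white adipose for 5 of 7 genes, in muscle for 4, in pancreas for 3, in hypothalamus for 1 and in liver for none. Col3a1 on chip B read 22303 in white adipose, 7495 in pancreas, 4177 in muscle, 63.5 in hypothalamus and 536 in liver. White adipose was 2.98-fold over pancreas and 5.34-fold over muscle, and at least 28.1-fold over liver and 34.3-fold over hypothalamus, both of which were within noise. A second Col3a1 probe set on chip A read 521 in white adipose and between -11 and 123 in the other tissues. It had the same highest tissue at a far weaker signal, which was below the bounds of pancreas and muscle.

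Col1a1, the gene of the main chain of collagen I, had 3 probe sets, all of family type. On chip B it read 11339 in white adipose, 5184 in muscle, 2725 in pancreas, 192 in hypothalamus and 144 in liver. The order was adipose, muscle, pancreas, with liver and hypothalamus within noise, and adipose was 2.19-fold over muscle. One probe set of chip A gave the same order, with 7415 in white adipose, 2689 in muscle and 1336 in pancreas (2.76-fold over muscle). The other, made from an expressed sequence tag, read 1717 in muscle, 1710.2 in pancreas and 1394 in white adipose, 1.23-fold at most between them, and its highest tissue changed with the scaling.

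Col1a2 encodes the partner chain of collagen I. Its strongest probe set read 4235 in white adipose and 3204 in muscle, a 1.32-fold difference, against 322 in pancreas, -11.9 in hypothalamus and -219.6 in liver. The other 2 probe sets read 2946 and 2020.4 in white adipose and 1693 and 731 in muscle. By value all 3 were thus highest in white adipose with muscle next, and none was above noise in pancreas. The 731 was within noise in muscle, and 2020.4 and 1693 are below the pancreas bound.

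Col5a1 and Col5a2 encode chains of collagen V, a minor fibrillar collagen inside collagen I fibrils. Col5a2 read 1019 in white adipose and from -202 to 26.1 in the other tissues, and was called for white adipose, although 1019 is below the bounds of pancreas and muscle. For Col5a1 the 3 probe sets disagreed. One read 972 in white adipose and at most 167 elsewhere and was called for white adipose, although 972 is below the bounds of pancreas and muscle on its chip. Another was highest in pancreas, with 3234 there, 2294 in white adipose, 1799 in muscle, 459 in hypothalamus and 187 in liver. The remaining probe set read 649 in pancreas and 670.5 in muscle, within the noise of both arrays, and 151 in white adipose. The tissue of highest Col5a1 signal is therefore not settled by these arrays. Over the 7 fibrillar genes the median log2 difference of white adipose from the mean of the other 4 tissues was 3.06, against -0.03 over all named genes, and in liver it was -2.50, against -0.18. The 3.06 is the value of Col5a2, whose other 4 tissues had all been raised to the floor. It was the largest of the 12 class medians in white adipose, which went down to -0.34 for basement membrane collagens. The -0.34 is the value of Col4a5, above noise in no tissue, whose values in all tissues but pancreas had been raised to the floor. Of that class, Col4a1 and Col4a2 were highest in white adipose, so the low median does not describe them.

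**Figure D3:**
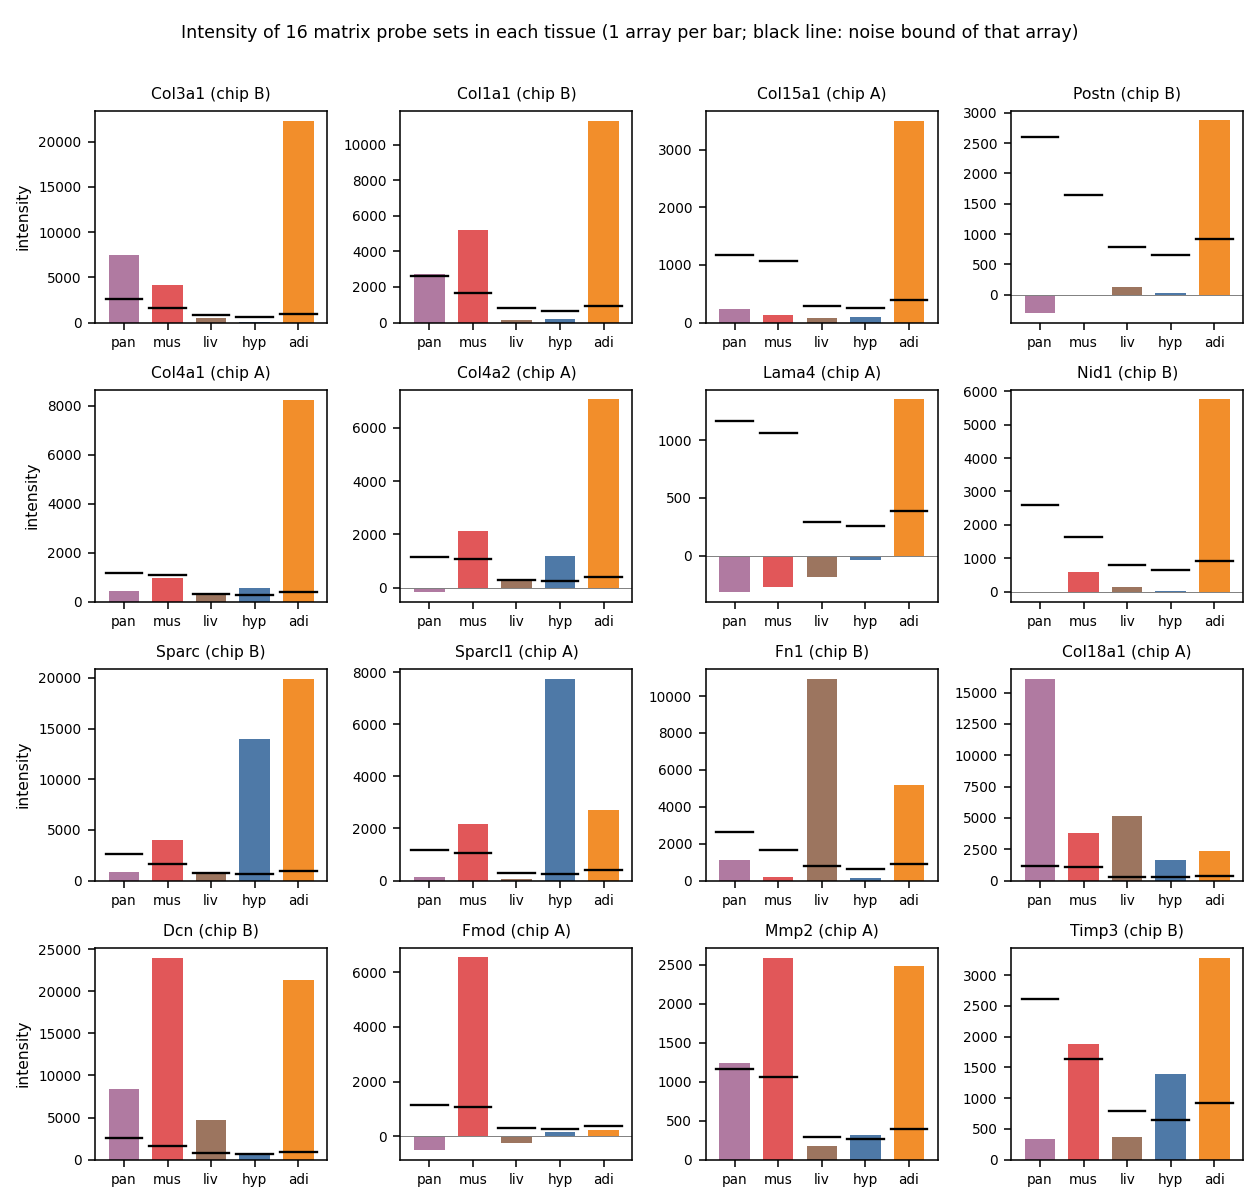
Intensity (linear scale, vertical axis) of 16 matrix probe sets in pancreas (pan), muscle (mus), liver (liv), hypothalamus (hyp) and white adipose (adi), 1 array per bar, with the noise bound of each array as a black line. Each panel has its own axis, so heights are comparable only within a panel. Col15a1, Postn, Lama4 and Nid1 pass their bound in white adipose alone, whereas Sparc is high in hypothalamus and adipose, and Dcn and Mmp2 are close between muscle and adipose, an order that changes with the scaling for Dcn and Mmp2 and, under quantile normalization, for Sparc.

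Basement membrane collagens split between tissues. Col4a1, the gene of the collagen IV alpha-1 chain found in all basement membranes, read 8245 in white adipose, 969 in muscle, 555 in hypothalamus, 445 in pancreas and 283 in liver. White adipose was 14.9-fold over hypothalamus, the only other tissue above noise, and at least 7.07-fold over every array's bound. Its head-to-head neighbour Col4a2, the partner chain, read 7064 in white adipose, 2139.7 in muscle, 1194 in hypothalamus, 309 in liver and -154 in pancreas, 3.30-fold over muscle and 5.92-fold over hypothalamus. Both were highest in white adipose and both exceeded noise in hypothalamus.

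Col4a4, a chain of the collagen IV network best known from kidney glomeruli, had another pattern. It read 4041 in pancreas, 1766 in muscle, 894 in hypothalamus, 238 in liver and 235 in white adipose. Pancreas was 2.29-fold over muscle and 4.52-fold over hypothalamus, and white adipose and liver were within noise. Col4a3 and Col4a5, its partners in that network, read 469 and 315 in pancreas, which is within noise there.

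Other collagens with a signal were 5 of 15 genes. Collagen VI, a beaded filament around adipocytes and muscle fibres, was measured through 2 chains. Col6a1 read 15594 in white adipose, 2689 in muscle, 710.1 in pancreas, 409 in hypothalamus and 143 in liver, 5.80-fold over muscle. Col6a2 read 17070.0 in white adipose, 7059 in muscle, 3195 in pancreas, 853 in liver and 849 in hypothalamus, 2.42-fold over muscle and 5.34-fold over pancreas. Both chains thus had the order adipose, muscle, pancreas, and Col6a2 was one of 3 members above noise on all 5 arrays, with Col18a1 and Dcn.

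Col15a1 and Col18a1 encode the related multiplexin collagens XV and XVIII, and their highest tissues differed. Col15a1 read 3503 in white adipose and was within noise elsewhere, with 240.2 in pancreas, 129 in muscle, 92.5 in hypothalamus and 82.8 in liver. The fold was at least 3.0 over pancreas, 3.29 over muscle, 11.9 over liver and 13.6 over hypothalamus. Col18a1, whose product carries the endostatin fragment at its end, read 16087 in pancreas, 5140.4 in liver, 3776 in muscle, 2352 in white adipose and 1650.0 in hypothalamus. Pancreas was 3.13-fold over liver and 6.84-fold over white adipose, so Col18a1 was among the few members for which adipose was below most tissues. Col7a1, the anchoring fibril collagen of skin and other lining tissues, read 1868 in pancreas and from -135 to 54.7 elsewhere, at least 1.75-fold over the bound of muscle and 6.33-fold over that of liver.

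Laminins are trimers of an alpha, a beta and a gamma chain. In white adipose 4 of 8 genes were above noise, in pancreas 1, and in muscle, liver and hypothalamus none. Lamc1, the gene of the common gamma-1 chain, read 2671 in white adipose, 416 in muscle, 47.7 in hypothalamus, -99.8 in liver and -484 in pancreas, at least 2.29-fold over every bound. Lama4, an alpha chain of vessel and adipocyte basement membranes, read 1354 in white adipose and was below 0 in all 4 other tissues, at least 1.16-fold over the pancreas bound and 5.25-fold over that of hypothalamus. These 2 were called for white adipose.

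Lamb1, the beta-1 chain, read 499 in white adipose and between -28.1 and 17 in the other tissues, too weak to pass the bounds of pancreas and muscle. Lama2, the alpha-2 chain of the muscle fibre's basement membrane, read 819.8 in muscle, 783 in white adipose and 566 in pancreas, but only the adipose value was above the noise of its own array. Lamb3, a chain of epithelial laminin, was instead called for pancreas, with 1216 there and from -161 to 73.4 elsewhere, at least 1.14-fold over the muscle bound and 3.12-fold over that of white adipose.

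The basement membrane linkers followed the laminins. Nid1, nidogen 1, which joins laminin to collagen IV, read 5754 in white adipose, 601 in muscle, 142 in liver, 32.7 in hypothalamus and -4.01 in pancreas, at least 2.21-fold over every bound. Nid2 read 784 in white adipose and at most 19 elsewhere, which the 4-fold rule called for white adipose although the value was below the bound of its array. Hspg2, perlecan, read 1543 in white adipose on chip A and from 34.8 to 458 in the other tissues, at least 1.32-fold over every bound. One Hspg2 probe set of chip B also had its highest value in white adipose, at 2496 against 2055 in pancreas, but 2496 is below the pancreas bound. The other was below 0 on all 5 arrays.

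Elastic fibre genes were above noise in white adipose for 3 of 5 genes, in muscle for 1 and in the other tissues for none. Eln, the elastin gene, read 2069 in white adipose, 212 in hypothalamus, 83.8 in liver, 62.1 in muscle and -61 in pancreas, at least 1.77-fold over every bound. A second Eln probe set was within noise in all tissues, at 96.4 in white adipose. Fbln2, fibulin 2, read 3668 in white adipose, 3107 in muscle, 1747 in pancreas, 314 in hypothalamus and 288 in liver, and the 1.18-fold difference between adipose and muscle is small. Fbln1, fibulin 1, read 2692 in white adipose and at most 832 elsewhere, at least 1.03-fold over the pancreas bound. Of the 2 lysyl oxidases, which crosslink collagen and elastin, Loxl1 read 1734 in white adipose and was below 0 in the other 4, at least 1.49-fold over every bound, and Lox read 343 there, within noise.

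**Figure D4:**
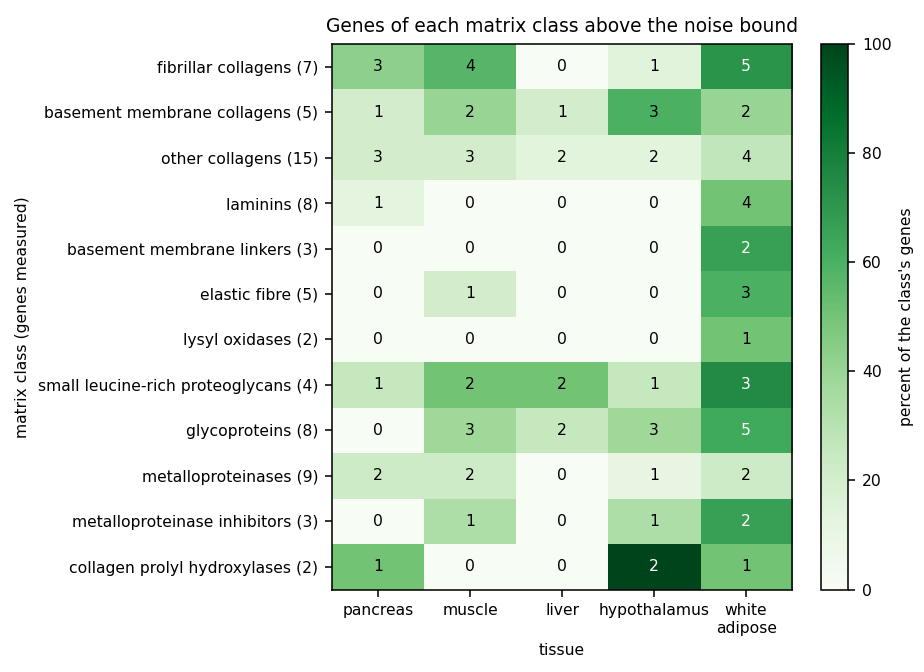
Number of genes above the array's noise bound for each of 12 matrix classes (rows, with the genes measured in brackets) in each of 5 tissues (columns). Colour gives that number as a percent of the class's genes, and noise bounds were highest in pancreas and muscle. White adipose holds the largest number in most rows, with 5 of 7 fibrillar collagens and 4 of 8 laminins, and ties with or falls below another tissue for basement membrane collagens, metalloproteinases and collagen prolyl hydroxylases.

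All 4 small leucine-rich proteoglycans had a signal, and they differed in tissue. Dcn, decorin, read 23963 in muscle, 21333 in white adipose, 8349.7 in pancreas, 4739 in liver and 833 in hypothalamus. Muscle and adipose differed by 1.12-fold, an order that turned under 75th percentile scaling and quantile normalization, and both were above pancreas, liver and hypothalamus. Its neighbour on chromosome 10, Lum, lumican, read 1705 in white adipose, 323 in pancreas, 135 in liver, 27.8 in hypothalamus and 17 in muscle, at least 1.46-fold over every bound. The neighbours thus shared adipose and not muscle, where Lum was within noise.

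Fmod, fibromodulin, a proteoglycan of tendon and fascia, was the one member gene called for muscle. It read 6535 there on chip A, against 250.2 in white adipose, 164 in hypothalamus, -227 in liver and -492 in pancreas, at least 5.60-fold over every bound. On chip B it read 2149 in muscle and at most 2 elsewhere, and the call was the same. Bgn, biglycan, read 2481 in white adipose, 1226 in liver, 717 in pancreas, 216 in muscle and 181 in hypothalamus, 2.02-fold over liver and at least 9.61-fold over hypothalamus.

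The matrix glycoproteins held the members that were highest in liver and in hypothalamus. Fn1, fibronectin, which the liver also secretes into plasma, read 10928 in liver, 5175 in white adipose, 1094 in pancreas, 193 in muscle and 159.8 in hypothalamus on chip B, 2.11-fold over adipose. On chip A it read 6093 in liver and 4044 in white adipose, 1.51-fold. Both probe sets were within noise in the other 3 tissues. Sparcl1, a secreted relative of Sparc made by astrocytes and vessels, read 7736 in hypothalamus, 2714 in white adipose, 2162 in muscle, 129 in pancreas and 46.9 in liver, 2.85-fold over adipose and 3.58-fold over muscle.

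Sparc, osteonectin, a secreted protein that binds collagen, was high in both of these tissues. One probe set read 19903 in white adipose, 13982 in hypothalamus, 4042 in muscle, 841 in pancreas and 823 in liver, and the other 18824, 13870.4, 4140.0, 595 and 797. White adipose was 1.42- and 1.36-fold over hypothalamus, and under quantile normalization the order of these 2 tissues turned for both probe sets. Hypothalamus was 17- and 17.4-fold over liver, although fibrillar collagen I and III were within noise in hypothalamus.

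Postn read 2875 in white adipose, 124 in liver, 25.8 in hypothalamus, -2.01 in muscle and -301 in pancreas. It was called for white adipose, but the pancreas bound on chip B limits the fold to at least 1.10, with at least 1.75 over muscle, 3.63 over liver and 4.43 over hypothalamus. Mgp, matrix Gla protein, an inhibitor of calcification, read 6157 in white adipose, 3180.0 in muscle, 1682 in pancreas, 798 in hypothalamus and 203 in liver, 1.94-fold over muscle. A second Mgp probe set on chip A was within noise in every tissue. The 3 thrombospondin genes were within noise throughout, with 974 for Thbs1 in muscle as the highest of their values.

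Metalloproteinases showed no shared tissue. Of 9 genes, 3 were above noise somewhere. Mmp2, the gelatinase of stromal cells, read 2588 in muscle, 2487 in white adipose, 1243 in pancreas, 310.3 in hypothalamus and 169 in liver. Muscle and adipose differed by 1.04-fold and their order turned under 75th percentile scaling. Mmp11, stromelysin 3, read 4398 in pancreas, 2057 in muscle, 878 in white adipose, 638 in hypothalamus and 455 in liver, 2.14-fold over muscle. Mmp14, a membrane enzyme that activates Mmp2, read 482 in white adipose, above the noise of that array, and 368 in pancreas and 215 in muscle, within theirs. Mmp3 read 2439.7 in pancreas against at most 299, which passed the 4-fold rule but not the noise bound.

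Of the 3 inhibitors, Timp2 and Timp3 were highest in white adipose. Timp2 read 1369 in white adipose, 334 in hypothalamus, 204 in muscle, -139 in liver and -1739 in pancreas, and was called for white adipose, although 1369 is below the bounds of pancreas and muscle. With 75th percentile scaling or quantile normalization it was not called. Timp3, which binds to the matrix itself, read 3282 in white adipose, 1888 in muscle, 1400.1 in hypothalamus, 362 in liver and 339 in pancreas, 1.74-fold over muscle and 2.34-fold over hypothalamus. Timp1 was within noise in all tissues, with 951 in muscle and 859 in pancreas as its highest values.

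The catalytic subunits of collagen prolyl hydroxylase, which modify collagen in the endoplasmic reticulum, differed from the collagens. P4ha2 read 1919 in pancreas, 349.8 in muscle, 295 in white adipose, 271 in hypothalamus and 148 in liver, and was called for pancreas, at least 1.80-fold over the muscle bound and 7.09-fold over hypothalamus. P4ha1 read 976 in muscle and 408 in pancreas, within noise there, and 509 in hypothalamus and 452 in white adipose, above it. Neither gene was highest in white adipose.

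Where both arrays were above noise, ratios could be taken without a bound. Between white adipose and muscle this held for 19 matrix probe sets of 15 genes, of which 15 were higher in adipose, with a median ratio of 1.74. Over all 1481 such probe sets the median ratio was 0.701 and 31.5% were higher in adipose. Col6a1 (5.80), Col3a1 (5.34) and the 2 Sparc probe sets (4.92 and 4.55) had the largest ratios, and Col18a1 (0.623) the smallest. Against pancreas 6 of 9 were higher in adipose, with a median ratio of 2.55 where all 1173 probe sets had 0.602, and the range ran from 0.146 for Col18a1 to 5.55 for Col1a1.

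Against liver 6 of 9 were higher in adipose, with a median ratio of 4.50 where all 2462 probe sets had 1.14. Sparc was 24.2- and 23.6-fold, Col4a2 22.8-fold and Col6a2 20-fold higher in adipose, whereas both Fn1 probe sets (0.664 and 0.474) and Col18a1 (0.458) were lower. Against hypothalamus 11 of 13 were higher in adipose, with a median ratio of 5.0 where all 2568 probe sets had 1.04. Dcn (25.6), Col6a2 (20.1) and Col4a1 (14.9) stood highest there, and Sparcl1 (0.351) and P4ha1 (0.888) lay below 1. The 4 comparisons share the adipose arrays, so they are not independent of each other.

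**Figure D5:**
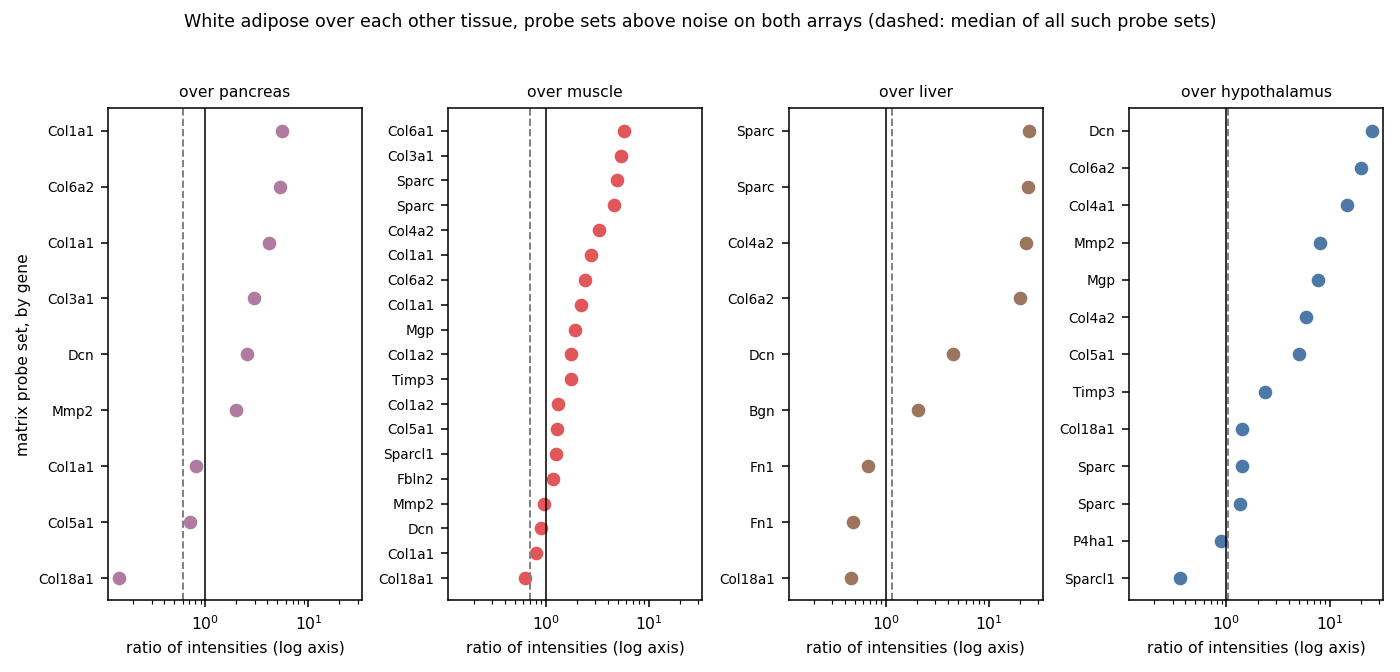
Ratio of intensity in white adipose over pancreas, muscle, liver and hypothalamus (log axis), one point per matrix probe set above noise on both arrays, named by gene. The solid line is a ratio of 1 and the dashed line the median of all probe sets above noise on both arrays (0.602, 0.701, 1.14 and 1.04). Most points lie to the right of both lines, with Col18a1 to the left of 1 except against hypothalamus, Fn1 to the left against liver and Sparcl1 against hypothalamus. Sparc against hypothalamus and Dcn and Mmp2 against muscle lie close to 1 and cross it under another scaling.

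Repeated probe sets gave a view of the measurement itself. Of 14 member genes with several probe sets, 8 had at least 2 whose highest value was above noise, and in 6 of these the probe sets shared their highest tissue. Col1a2, Col3a1, Hspg2 and Sparc shared white adipose, Fn1 liver and Fmod muscle. For 1 probe set each of Col1a2, Col3a1 and Hspg2 the adipose value was below the pancreas bound, so its order to pancreas is not settled. The exceptions were Col1a1, with muscle for 1 of 3, and Col5a1, with pancreas for 1 of 2. Among neighbouring genes, Col4a1 and Col4a2, Col6a1 and Col6a2, and Col3a1 and Col5a2 each shared white adipose as their highest tissue. For Col5a2 the adipose value was below the bounds of pancreas and muscle, so its order to those tissues is not settled. Lum was highest in white adipose and Dcn in muscle, but Dcn was only 1.12-fold over white adipose there, an order that turned under other scalings. White adipose was the highest tissue of 68.8% of member probe sets above noise, so shared tissues among neighbours are read as a description.

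Other genes of matrix handling were described by 5 lists, whose counts of called genes are small. Of 10 measured genes for collagen folding and processing, 1 (10%) was called for white adipose, where 0.911% of all probe sets were. This was Serpinh1, the collagen chaperone Hsp47, with 7335 in white adipose, 642 in pancreas, 368 in hypothalamus, 288 in muscle and 219.6 in liver, at least 2.81-fold over every bound and called by both of its probe sets. Pcolce, which enhances procollagen cleavage, read 3073 in white adipose, at least 1.18-fold over every bound. Ppib and P4hb, folding enzymes used by many secreted proteins, were highest in pancreas, at 13785 (2.26-fold over liver) and 10523 (1.51-fold over liver). The median log2 difference of the list was -0.11 in white adipose and 0.34 in pancreas, against -0.03 and 0.00 over all named genes.

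Among 22 other matrix proteins measured, none was called for white adipose, 2 (9.09%, background 3.58%) for pancreas and 1 (4.55%, background 2.12%) for liver. Vtn, vitronectin, a plasma adhesion protein, was called for liver at 14600.1, 9.90-fold over pancreas, and Matn1, matrilin 1 of cartilage, for pancreas at 1373, at least 1.29-fold over the muscle bound, while Acan, aggrecan, passed the rule for pancreas within noise. Tnxb, tenascin X, read 2948 in white adipose (at least 1.13-fold), Smoc1 2101 there (1.54-fold over liver) and Bcan, the brain proteoglycan brevican, 3154 in hypothalamus (at least 1.21-fold). The median in white adipose was 0.00. Of 21 matrix receptors, Sdc1 was called for liver at 990.0, above noise (4.76%, background 2.04%), and Itga4 and Itga5 for pancreas (9.52%, background 3.58%), both within noise. The 990.0 is below the bounds of pancreas and muscle. Itgb1, the common integrin beta-1 chain, was above noise in all 5 tissues and read 5909 in white adipose and 5066 in muscle, while Cd36, a receptor for thrombospondin and fatty acids, read 19886 in white adipose, 3.66-fold over muscle, and Sdc4 11936 in liver, 3.72-fold over pancreas.

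Of 18 genes of TGF-beta and CCN signalling, which controls matrix synthesis, 14 were above noise nowhere. Fstl1 and Ski were called for white adipose (11.1%, background 0.911%), Fstl1 above noise at 749.6 and Ski within noise at 566. The 749.6 is below the bounds of pancreas and muscle. Eng, endoglin, a co-receptor of vessel walls, read 7236 in white adipose, 1.74-fold over liver. Of 18 genes of the plasminogen system and related proteases, Plg, plasminogen, and Serpinf2, the plasmin inhibitor, were called for liver (11.1%, background 2.12%) at 19790.4 (at least 17-fold) and 7907 (at least 3.03-fold). Ctsb, a lysosomal protease, read 10716 in white adipose, 1.67-fold over liver, and Ctsl 12687 in liver, 1.86-fold over white adipose. The list medians in white adipose were 0.00 and 0.16.

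Markers of other cell types are given beside these values. Of 8 measured fibroblast markers, 4 of which are members, 6 were above noise in white adipose, 3 in muscle, 3 in hypothalamus, 2 in pancreas and 1 in liver, and Pdgfra was within noise in all 5. Their summed level, with values below 0 taken as 0, was 42264 in white adipose, 31977 in muscle, 17966 in hypothalamus, 14083 in pancreas and 5658 in liver. A sum weighs its strongest probe sets most: without Dcn, itself a member, it was 20931 in white adipose, 8014 in muscle, 17134 in hypothalamus, 5733 in pancreas and 919 in liver. The hypothalamus sum rests on Thy1, also a neuron gene, at 15348.

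Endothelial markers, 7 in number, were above noise in white adipose for 4, in liver for 2, in muscle and hypothalamus for 1 each and in pancreas for none, with Pecam1 and Flt1 within noise in all 5 tissues. They summed to 12532 in white adipose, from 5435 to 7092 in muscle, liver and pancreas, and 1211 in hypothalamus. The pancreas sum, 7092, is made of values within noise only, so its place among the tissues is not settled. Without Eng, their strongest gene, white adipose had 5296, pancreas 4496 and muscle 2929. Of 7 smooth muscle and pericyte markers, 5 were above noise in white adipose and 4 in muscle, and Myh11 was in none. They summed to 18326 in muscle and 11838 in white adipose, and the range elsewhere was from 909 to 3162. Without Des, which muscle fibres also express, muscle had 9357 and white adipose 11401.

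Of 6 macrophage markers, 5 were above noise in white adipose, 2 each in muscle and liver and 1 each in pancreas and hypothalamus, and Adgre1 was in none. Their sum was 16391 in white adipose and from 2912 to 8643 elsewhere, and without Lyz2 it was 6171 and from 1219.8 to 2458. Csf1r (1757) and Mrc1 (1745) were called for white adipose (33.3%, background 0.911%). Both values are below the pancreas bound, so their order to pancreas is not settled. In contrast, Cd14 was highest in muscle (2197, against 1707 in white adipose), also below the pancreas bound. Cd68 read 566 in pancreas, within noise, and 557 in white adipose, above it.

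Of the acinar markers 1 of 4 was above noise in white adipose, Cela1 at 1444, and none of the 6 hepatocyte or 6 neuron markers was. Of the 6 muscle fibre markers, Ckm (2301) and Acta1 (1063) were above noise there. For 2 of the 3 measured cartilage and bone markers, Acan and Matn1, the 4-fold rule gave pancreas (66.7%, background 3.58%). Matn1 was above noise there and Acan, at 933, within it, and Ibsp was within noise in all 5. In muscle Des read 8969.5, and of the other stellate cell markers only Reln was measured, at 575 in liver.

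The 4 markers of meninges and choroid plexus had no shared tissue: Ptgds was called for hypothalamus at 6812, Slc6a13 for liver at 3539, Ttr was highest in liver (4144, with 156 in hypothalamus) and Igf2 in muscle (2142, with 923 in hypothalamus). Of 3 astrocyte markers, S100b was called for hypothalamus at 1934 and Gfap was above noise there alone, at 693, with 1438 in pancreas within noise. Aqp4 was within noise in all 5, with 426 in muscle as its highest value. What part any of these cell types had in the matrix levels was not tested.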

How the data were processed

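The deposited values are intensities per probe set on a linear scale, in whole numbers; their 2% trimmed mean is 500.0 on every array, so the authors had scaled them. The software, its version and presence calls were not given in the sources used here. Groups came from the titles, and for adipose from the source label, since the title names a preconfluent state. No column of the tables went unmatched (0).

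After 61 controls per chip were left out, each array was scaled to the mean trimmed mean of its chip. Between 17.1% and 38.8% of an array's values were below 0. Genes came from the platform annotation: 7542 probe sets had 1 gene symbol. A gene with several probe sets was represented by the one of highest mean log2 rank. Named are the markers, every member gene above noise (in full for up to 4 per class by fold), and called genes of other lists, up to 4 per list; the remaining genes named were chosen after their values were seen. Members and lists were chosen with earlier results of these data known. Python 3.11.15, numpy 2.4.6, pandas 2.3.3 and matplotlib 3.10.9 were used. The call rule was tested on simulated data with 200 planted calls per chip. The number of arrays limits the precision. Alternatives were other scalings, floors, fold rules, noise bounds, probe set filters and left-out arrays. RefSeq tables of GRCm38.p6 gave names, neighbours and promoters.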

Additional observations from a re-analysis of the deposited data

How the results depend on the processing

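The counts of called matrix probe sets were 14 for white adipose, 4 for pancreas, 2 for muscle and 0 for hypothalamus and liver. With the floor at the 75th percentile they were 1 in pancreas, 1 in muscle and 6 in white adipose, and with each array's noise bound as floor 0, 1 and 2. Of all 13057 probe sets, the former floor gave 192, 140 and 64 for these tissues and the latter 91, 99 and 32. A 2-fold rule gave 25 for white adipose, 11 for pancreas, 8 for muscle, 1 for hypothalamus (Sparcl1) and 1 for liver (Fn1). Over all probe sets the 2-fold rule gave 348 for white adipose, 1398 for pancreas, 902 for muscle, 686 for hypothalamus and 506 for liver. Leaving out the arrays of 1 tissue at a time gave 4 to 9 for pancreas (9 without muscle), 2 to 7 for muscle (7 without white adipose, 4 without pancreas), 0 to 2 for liver (2 without white adipose) and 16 to 21 for white adipose. Over all probe sets it gave 516 to 773 for pancreas, 261 to 412 for muscle, 299 to 385 for liver and 161 to 208 for white adipose. Without pancreas and muscle together, an alternative added after seeing the data, white adipose had 31, and 317 over all probe sets. Without the relaxed and shared designs, which leaves 10 probe sets, 1 was called for pancreas, 0 for muscle and 1 for white adipose. The share over all probe sets without those designs was not counted. Scaling by the 75th percentile gave 14 for white adipose and quantile normalization 15, each sharing 13 with the 14. Over all probe sets each of these 2 scalings gave 126 for white adipose.

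With a noise bound from the 5th percentile, 58 matrix probe sets were above noise in white adipose and 39 in hypothalamus. Muscle had 37, liver 27 and pancreas 23. Quantile normalization gave 38 in white adipose, 29 in muscle, 19 in pancreas, 6 in hypothalamus and 5 in liver. For these alternatives the share over all probe sets was not counted. The median log2 difference of all members in white adipose was 0.66, 0.00 with the floor at the 75th percentile and -0.41 with noise bounds as floor, where that of all named genes was -0.51. Scaling by the 75th percentile moved the liver median of all named genes from -0.18 to 0.00. Of the counts and medians that answer a comparison 69 alternatives stayed near the reported value and 28 moved, and of single genes and classes 403 and 61. For Sparc, quantile normalization turned log2 of adipose over hypothalamus to -0.50 and -0.48, and for Dcn that of muscle over adipose to -0.87. The cause of these changes was not tested. Low signal over background limits pancreas and muscle most.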
